A study of Mus musculus with 9 samples.

Results

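Collagen chains were taken as the 44 genes, of 55414 in the deposited tables, whose symbol is built as Col, a type number, the letter a and a chain number. By textbook class, 11 of them are fibrillar, 9 belong to basement membranes and their anchoring fibrils, 8 are beaded or related, 9 are FACIT chains, 4 are transmembrane and 3 form short-chain networks. RNA had been sequenced from cells taken by laser microdissection from mouse lung alveoli, which the protocol calls mainly fibroblasts and the labels call primary lung fibroblasts, in 3 libraries for each of 3 groups. All mice were wild type males of the C57BL/6J background. The PDK4-IN group received PDK4-IN, an inhibitor of pyruvate dehydrogenase kinase 4 with an anthraquinone scaffold, from 20 months of age at intervals of 2 weeks over 4 months, and tissue was taken at 24 months. The protocol sets a vehicle arm of the same age and schedule beside it, and the labels call the remaining old group Aged. The labels of the Young group give no age. Captured cells were pooled before lysis, so the libraries of a group may not be separate animals, and every p-value below measures only the spread between these libraries. Sheet names within the deposited tables speak of bleomycin and of another compound, PCC1, and the 3 groups were therefore taken from column names and labels.

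Collagens are extracellular proteins in which chains wind into a triple helix. Fibrillar chains form the tensile fibres of the lung interstitium, type IV chains form the sheet beneath epithelium and endothelium, beaded type VI chains form microfibrils around cells, and FACIT chains sit on fibril surfaces. Chains are made, hydroxylated and folded in the endoplasmic reticulum, trimmed and cross-linked outside the cell, and removed by metalloproteinases, cathepsins and endocytic receptors. Fibroblasts are the main source of fibrillar collagen in the lung, and the balance of synthesis and removal is known to shift in lung ageing and fibrosis.

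Library totals ranged between 19456303 and 26660364 counts. Levels are CPM, the counts of a gene scaled to the library total, and levels of different genes are compared only as CPM per kilobase of the deposited gene length. Of 14 fibroblast markers, 13 in PDK4-IN, 12 in Aged and 13 in Young reached a mean of 1 CPM, with summed levels of 6195 to 6474, 5594 to 5635 and 6271 to 6771 CPM, and Tcf21 was at 0 in the Aged libraries. The 15 alveolar epithelium markers share Pdpn with the fibroblast list, so their sum is not of epithelial genes alone. They summed to 442 to 458 CPM in PDK4-IN, 412 to 421 CPM in Aged and 319 to 326 CPM in Young libraries, with 6, 7 and 5 of them at a mean of 1 CPM or more. Of these, Sftpa1 was at 0 in the PDK4-IN libraries, and Sftpb, Sftpa1 and Nkx2-1 in the Young libraries. Markers of other cells also differed between the groups. The 17 monocyte and macrophage markers summed to 154 to 172 CPM in PDK4-IN, 4974 to 5027 CPM in Aged and 45.0 to 55.0 CPM in Young libraries, and the 12 smooth muscle and pericyte markers to 726 to 745, 666 to 679 and 2411 to 2530 CPM. In such bulk samples fewer cells of a type and less RNA per cell cannot be told apart, and the part of these markers in the collagen values was not tested. Levels also went with gene length to a different degree in each library, and the cause of this trend was not tested. A slope on log2 gene length, fitted to how far each library stood from the average of all 9, was -0.0059, -0.098 and -0.14 in PDK4-IN 1 to 3, 0.054 to 0.067 in Aged, and 0.067, 0.060 and -0.062 in Young 1 to 3. With this trend removed, the log2 fold changes of the 18 chains with a group mean of at least 50 CPM all moved up in PDK4-IN over Aged, by 0.03 to 0.39 (median 0.25), and in PDK4-IN over Young, by 0.0049 to 0.28 (median 0.17). In Aged over Young all 18 moved down, by shifts between -0.12 and -0.02. Values with the trend removed follow where they end or add a call that is printed for a chain, or move such a value by over 1.5 times.

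RefSeq (GRCm38.p6) held promoter windows for 35 of the 44 chains, 38 windows in all, and the 250 bases before the annotated start are shown for 4 of them, with motif matches in capitals. Col10a1 and Col8a1 are shown because they had large falls with age, and Col1a2 and Col3a1 because these fibrillar partners of Col1a1 had calls in opposite directions with PDK4-IN over Aged, a difference that ended for Col3a1 once the length trend was removed. The files themselves were aligned to a newer build, GRCm39.
Col10a1, chr10:34389731-34389980, + strand: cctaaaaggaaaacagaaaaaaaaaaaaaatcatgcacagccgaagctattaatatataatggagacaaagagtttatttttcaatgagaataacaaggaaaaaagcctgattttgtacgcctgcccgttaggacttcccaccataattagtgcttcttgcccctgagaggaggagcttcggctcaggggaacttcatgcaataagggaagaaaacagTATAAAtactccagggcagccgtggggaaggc
Col8a1, chr16:57754738-57754987, - strand: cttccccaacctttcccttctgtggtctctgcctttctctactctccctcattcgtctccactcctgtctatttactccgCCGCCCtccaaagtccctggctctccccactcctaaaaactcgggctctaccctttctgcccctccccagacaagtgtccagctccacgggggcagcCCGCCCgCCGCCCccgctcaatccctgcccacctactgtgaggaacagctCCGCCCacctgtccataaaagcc
Col1a2, chr6:4505368-4505617, + strand: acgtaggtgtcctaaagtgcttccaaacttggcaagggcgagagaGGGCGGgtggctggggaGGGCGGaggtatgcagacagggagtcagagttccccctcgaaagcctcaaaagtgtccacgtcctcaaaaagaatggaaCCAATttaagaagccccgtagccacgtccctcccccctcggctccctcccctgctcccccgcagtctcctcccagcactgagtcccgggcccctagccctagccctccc
Col3a1, chr1:45311288-45311537, + strand: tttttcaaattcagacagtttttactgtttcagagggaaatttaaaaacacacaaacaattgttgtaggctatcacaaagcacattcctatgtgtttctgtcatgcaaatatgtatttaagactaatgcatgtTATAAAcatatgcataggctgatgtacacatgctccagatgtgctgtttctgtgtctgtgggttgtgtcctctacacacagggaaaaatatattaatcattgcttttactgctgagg
Both strands were searched for the letters CCAAT of the CCAAT box, TATAAA of the TATA box and GGGCGG of the GC box, which do not overlap in these 4 windows. Col10a1 had a TATAAA that began 32 bases before the start, and Col3a1 one at 117 bases. Col8a1 had 4 GC boxes, all on the opposite strand, and no match to the other motifs. Col1a2 had a CCAAT that began 109 bases before the start and GC boxes at 205 and 188 bases. A CCAAT was found in 34.2% of the collagen windows and in 33.8% of all 32851 windows, a TATAAA in 13.2% and 12.4%, and a GGGCGG in 57.9% and 32.7%. These matches describe the letters only.

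Collagen transcripts made up a smaller share of the library in Aged than in Young mice. All 44 chains summed to 10231, 9530 and 8896 CPM in PDK4-IN libraries, 8550, 8605 and 8536 CPM in Aged libraries and 11884, 11633 and 10116 CPM in Young libraries. Every Aged library lay below every Young library, a fold of 0.766 (exact permutation test, two-sided, p = 0.1, the smallest that 3 against 3 libraries allow). Each PDK4-IN library lay above every Aged library (fold 1.11, exact p = 0.1). Against Young, PDK4-IN 1 overlapped Young 3 (fold 0.853, exact p = 0.2), and with TMM-scaled CPM these 2 groups did not overlap (fold 0.834, exact p = 0.1). Without Col1a1, Col1a2 and Col3a1 the remaining chains held 4692 to 5584 CPM in PDK4-IN, 4757 to 4808 CPM in Aged and 5499 to 6823 CPM in Young libraries. Aged lay below Young (fold 0.759, exact p = 0.1), and PDK4-IN overlapped Aged (fold 1.07, exact p = 0.4).

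**Figure D1:**
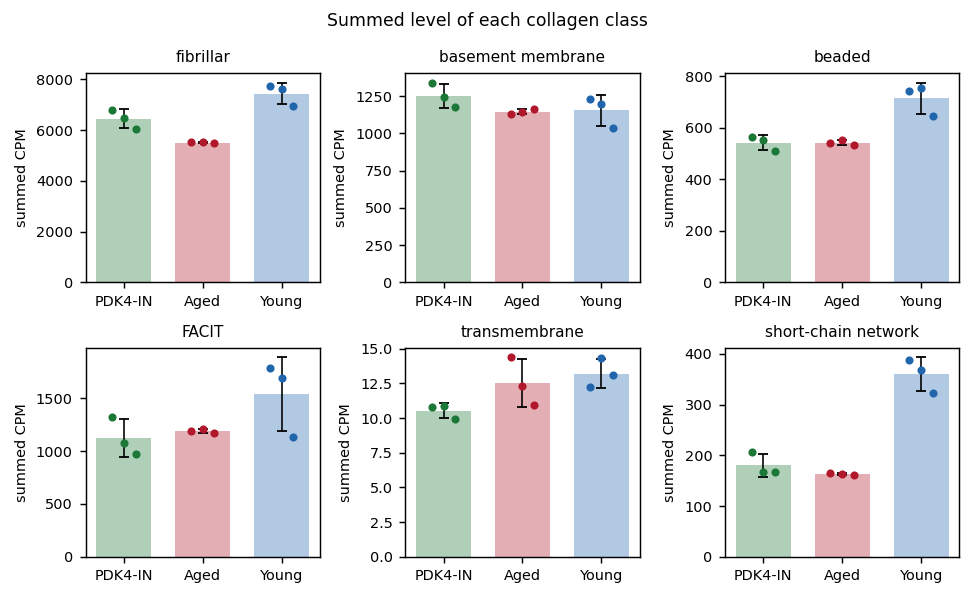
Summed CPM of the chains of each collagen class, with PDK4-IN, Aged and Young from left to right. Bars are means, error bars SDs and points the 3 libraries. The short-chain network class averaged 163 CPM in Aged and 360 CPM in Young libraries, while the basement membrane class averaged 1145 CPM in Aged and 1154 CPM in Young libraries.

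The classes did not move alike. Fibrillar chains summed to 6056 to 6789 CPM in PDK4-IN, 5493 to 5525 CPM in Aged and 6963 to 7729 CPM in Young libraries, with no overlap (fold 0.742 for Aged over Young and 1.17 for PDK4-IN over Aged, exact p = 0.1 for each). Basement membrane chains summed to 1128 to 1164 CPM in Aged and 1034 to 1231 CPM in Young libraries, which overlapped (fold 0.995, exact p = 1). Their share of all collagen counts was 13.1 ± 0.11% in PDK4-IN, 13.4 ± 0.23% in Aged and 10.3 ± 0.07% in Young libraries (SD, n = 3 each). Short-chain network chains had the largest difference of the class sums, with 167 to 207 CPM in PDK4-IN, 161 to 165 CPM in Aged and 323 to 388 CPM in Young libraries (fold over Young 0.501 for PDK4-IN and 0.455 for Aged). Beaded chains summed to 509 to 566 CPM in PDK4-IN and 533 to 552 CPM in Aged libraries, which overlapped, against 646 to 754 CPM in Young libraries. FACIT chains overlapped in all 3 comparisons, and Young 3, at 1138 CPM, lay far below Young 1 and 2, at 1782 and 1690.2 CPM.

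Of the 44 chains, 41 passed the filter on low counts and were tested in each comparison, while Col4a3, Col9a1 and Col26a1, all under 1 CPM, were not. With age, 12 chains were called higher and 18 lower, against 21.4% of all 16123 genes tested called higher and 19% called lower (edgeR, adjusted p below 0.05). The median log2 fold change was -0.16 over the chains and 0.01 over all genes. The direction went with the level of the chain. Of the 18 chains with a group mean of at least 50 CPM, 14 were lower and 2 higher with a median of -0.40, whereas among all 5139 genes of that level 32.1% were lower and 18.95% higher with a median of -0.06. Of the 11 chains between 1 and 5 CPM, 7 were higher and 2 lower with a median of 0.98, whereas among 3016 genes of that level 25.7% were higher and 4.91% lower with a median of 0.27. Of the higher ones, Col15a1, Col6a4, Col6a5, Col6a6 and Col25a1 averaged only 0.778, 0.567, 0.506, 0.247 and 0.835 CPM in Young libraries. Col10a1 reached 50 CPM only in Young libraries, at a mean of 59.1 CPM.

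With PDK4-IN over Aged, 15 chains were called higher and 11 lower, against 23.9% higher and 25.7% lower of 16275 genes. Medians were 0.02 over the chains and 0.00 over all genes. The Aged libraries enter both this comparison and the one with age, so the 2 sets of values are not independent. At 50 CPM and above, 11 of 18 chains were higher and 4 lower, against 37.2% and 30.7% of all genes at that level. Between 1 and 5 CPM, again by the highest group mean, 1 of 11 was higher and 5 lower, against 7.58% and 19.9%. With the gene-length trend removed, 18 chains were higher and 4 lower, against 21.8% and 22.8% of all genes. Leaving out the 3 libraries of steep slope (Young 3, PDK4-IN 2 and PDK4-IN 3) leaves PDK4-IN 1 as the only library of its group. That fit holds no spread within PDK4-IN, so only its fold changes are given below. The count of lower chains was 6 without Aged 1 or Aged 2, and 7 without Aged 3, PDK4-IN 2 or PDK4-IN 3.

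With PDK4-IN over Young, 7 chains were called higher and 15 lower, against 13.3% higher and 15.7% lower of 16553 genes. At 50 CPM and above, 12 of 18 were lower and 2 higher, against 25.3% and 15.6% of all genes at that level. This comparison was fitted on all 9 libraries. With the length trend removed 15 chains were higher and 13 lower, against 14.8% and 17.6% of all genes. The fit without the 3 libraries of steep slope again holds PDK4-IN 1 alone in its group, so no counts are given. Leaving out Young 1 or PDK4-IN 2 brought the count of higher chains to 3.

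**Figure D2:**
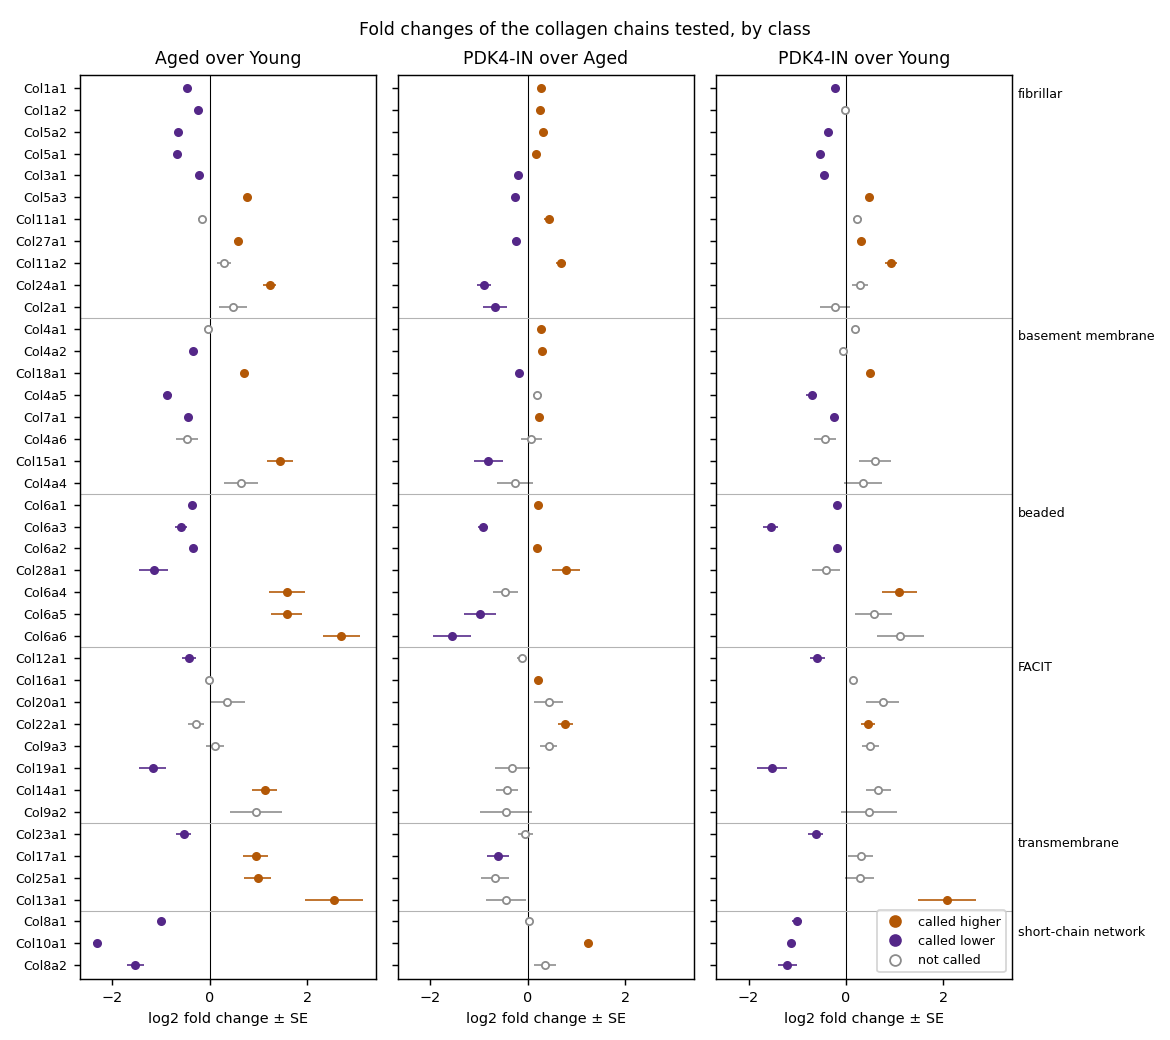
Log2 fold change ± SE of the 41 chains tested in each of the 3 comparisons, ordered by class and, within a class, by mean level in Young libraries. Filled points were called, and open points were not. In Aged over Young the 3 short-chain network chains were all called lower, at -0.99, -2.32 and -1.53.

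Type I collagen, the main fibril of lung interstitium, is a trimer of Col1a1 and Col1a2 chains. In PDK4-IN libraries Col1a1 had 2838, 2732 and 2566 CPM, in Aged libraries 2259.9, 2273 and 2235 CPM and in Young libraries 3161, 3172 and 2940.4 CPM. For Col1a2 the levels were 1590.4, 1539.6 and 1437 CPM in PDK4-IN, 1285, 1281 and 1285 CPM in Aged and 1612, 1539.8 and 1391 CPM in Young libraries. For both chains every Aged library lay below every Young and every PDK4-IN library, and the 3 Aged libraries of Col1a2 had a coefficient of variation of 0.167%. The spread of the groups was unequal. Over the 18 chains of at least 50 CPM the median coefficient was 5.80% in PDK4-IN, 1.51% in Aged and 6.01% in Young libraries. The order was lowest in Aged and highest in Young for Col1a1, while Col1a2 overlapped between PDK4-IN and Young. Col1a1 was called lower with age, at -0.47 ± 0.04 on the log2 scale (SE, edgeR adjusted p = 1.34e-05). For PDK4-IN over Aged the log2 fold change of Col1a1 was 0.27 ± 0.04, called higher (SE, edgeR adjusted p = 0.000259). Col1a1 was called lower with PDK4-IN over Young, at -0.22 ± 0.05 on the log2 scale (SE, edgeR adjusted p = 0.00426). For Col1a2 the log2 fold changes were -0.25 ± 0.06 with age and 0.25 ± 0.04 with PDK4-IN over Aged, both called. Over Aged, removal of the length trend gave 0.52 for Col1a1 and 0.47 for Col1a2. PDK4-IN over Young gave -0.02 ± 0.06 for Col1a2, which did not pass, and 0.13 with the length trend removed, which did (adjusted p = 0.00529). With the length trend removed Col1a1 in PDK4-IN over Young was -0.05 and no longer called (adjusted p = 0.29).

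Per kilobase, Col1a1 was the most abundant chain in all 3 groups, at 457 ± 23.1, 380 ± 3.18 and 521 ± 22.0 CPM per kilobase in PDK4-IN, Aged and Young libraries, followed by Col1a2 and then Col5a2. Col3a1, which co-assembles with type I, stood at rank 11 in PDK4-IN, 9 in Aged and 10 in Young libraries.

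**Figure D3:**
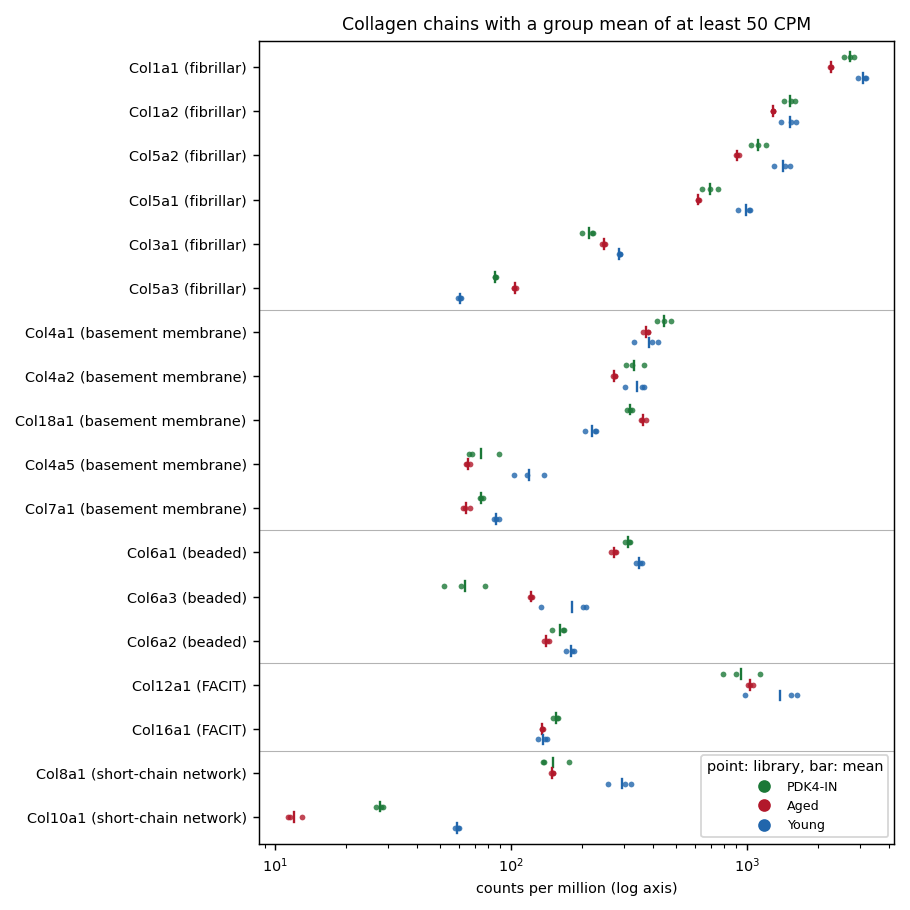
CPM in every library, on a log axis, of the 18 chains with a group mean of at least 50 CPM, grouped by class. Points are libraries and bars group means, with PDK4-IN above Aged and Aged above Young. Col10a1 shows 3 separate levels, at means of 27.8, 11.9 and 59.1 CPM, and Col5a3 and Col18a1 are highest in the Aged libraries.

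PDK4-IN libraries held 219, 222 and 200.03 CPM of Col3a1, Aged libraries 248, 243 and 251 CPM and Young libraries 289, 288 and 285 CPM. No library of one group overlapped another group, and Col3a1 was the one abundant fibrillar chain that was called lower in all 3 comparisons. The log2 fold changes of Col3a1 were -0.23 ± 0.05 with age, -0.20 ± 0.05 with PDK4-IN over Aged and -0.46 ± 0.05 with PDK4-IN over Young. The second of these was 0.02 with the length trend removed (adjusted p = 0.69) and -0.18 without the libraries of steep slope, and the third was -0.30 with the trend removed.

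Type V collagen regulates the width of type I fibrils, and Col5a1, Col5a2 and Col5a3 are its chains. Col5a1 measured 753, 694 and 641 CPM in the PDK4-IN libraries, 617, 627 and 616 CPM in the Aged libraries and 1016, 1029 and 917 CPM in the Young libraries. In PDK4-IN libraries Col5a2 had 1199, 1111 and 1035 CPM, in Aged libraries 899.6, 903 and 918 CPM and in Young libraries 1515, 1444 and 1297 CPM. Both chains were lowest in the Aged libraries and highest in the Young libraries, without overlap. For Col5a3 the levels were 86.5, 84.9 and 85.3 CPM in PDK4-IN, 105, 102 and 102 CPM in Aged and 61.0, 59.4 and 60.7 CPM in Young libraries. Col5a3 stood in the opposite order, lowest in Young and highest in Aged, again without overlap. With age, Col5a1 was lower, at a log2 fold change of -0.68 ± 0.05 (SE, edgeR adjusted p = 2.52e-06). Col5a2 was called lower with age, at -0.66 ± 0.06 on the log2 scale (SE, edgeR adjusted p = 7.25e-06). Per kilobase Col5a3 averaged 14.0, 16.9 and 9.86 CPM in PDK4-IN, Aged and Young libraries, below both of its partners. With age, Col5a3 was higher, at a log2 fold change of 0.76 ± 0.05 (SE, edgeR adjusted p = 1.2e-06). The log2 fold changes of PDK4-IN over Aged were 0.17 ± 0.05 for Col5a1, 0.31 ± 0.05 for Col5a2 and -0.26 ± 0.05 for Col5a3, all called. Removing the length trend gave 0.51, 0.58 and -0.01, and Col5a3 was no longer called (adjusted p = 0.934). For Col5a1 the value was 0.28 without the steep-slope libraries, and the call ended without any 1 Aged library or PDK4-IN 2 (0.17 to 0.18, adjusted p = 0.0531 to 0.0724). Against Young, PDK4-IN gave -0.54 ± 0.06 for Col5a1, -0.38 ± 0.06 for Col5a2 and 0.47 ± 0.05 for Col5a3, and with the length trend removed -0.30, -0.18 and 0.65.

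Among the less abundant fibrillar chains, Col24a1 and Col27a1, known from developing bone and cartilage, were called higher with age. PDK4-IN libraries held 5.98, 7.38 and 5.54 CPM of Col24a1, Aged libraries 13.1, 12.4 and 10.0 CPM and Young libraries 5.70, 4.50 and 4.93 CPM. The Aged libraries lay above all others, and PDK4-IN and Young libraries overlapped. Col24a1 did not pass with PDK4-IN over Young as reported, but was called higher there with the length trend removed. Col24a1 was called higher with age, at 1.22 ± 0.14 on the log2 scale (SE, edgeR adjusted p = 5.9e-05). Col24a1 was called lower in PDK4-IN over Aged, at -0.91 ± 0.14 (SE, edgeR adjusted p = 0.000384). Col27a1 averaged 36.1 ± 3.70 CPM in Aged and 24.0 ± 1.62 CPM in Young libraries and had a log2 fold change of 0.58 ± 0.09. Col11a1 and Col11a2, which nucleate cartilage fibrils, did not pass with age as reported but were higher with PDK4-IN over Aged. With the length trend removed Col11a1 was called lower with age and higher with PDK4-IN over Young. Without Young 3 Col11a1 was also called lower with age, and Col11a2 higher. Col11a2 averaged 14.9 ± 0.34 CPM in PDK4-IN, 9.39 ± 0.96 CPM in Aged and 7.68 ± 1.28 CPM in Young libraries, with log2 fold changes of 0.67 ± 0.10 over Aged and 0.93 ± 0.12 over Young. Col2a1, the main cartilage chain, averaged 1.59 to 2.56 CPM in the 3 groups, and passed in 1 comparison, PDK4-IN over Aged, at -0.68 ± 0.24 (adjusted p = 0.0341). That call ended with DESeq2 (adjusted p = 0.112) and with the length trend removed (-0.48, adjusted p = 0.118). It also ended without any 1 library but PDK4-IN 1 (-0.70 to -0.51, adjusted p = 0.064 to 0.126), and the value was -0.40 without the steep-slope libraries.

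Col4a1 and Col4a2 form the common type IV trimer and are neighbours on opposite strands. Col4a1 measured 476, 445 and 415 CPM in the PDK4-IN libraries, 363, 379 and 381 CPM in the Aged libraries and 418, 397 and 331 CPM in the Young libraries. In PDK4-IN libraries Col4a2 had 366, 326 and 306 CPM, in Aged libraries 274, 270.1 and 275 CPM and in Young libraries 358, 363 and 304 CPM. The libraries of the 2 partners lay differently with age. For Col4a1 the Aged libraries fell inside the Young range, whereas for Col4a2 each Aged library was below each Young library. With age, Col4a1 gave a log2 fold change of -0.04 ± 0.08 (SE), which did not pass (adjusted p = 0.706). Col4a1 was called lower with age with the length trend removed (-0.12, adjusted p = 0.016) and without Young 3 (-0.14, adjusted p = 0.000699), while it was 0.02 without Young 1. With age, Col4a2 was lower, at a log2 fold change of -0.34 ± 0.07 (SE, edgeR adjusted p = 0.00259). In PDK4-IN over Aged both were called higher, at 0.26 ± 0.05 and 0.29 ± 0.06, and neither passed against Young. The values over Aged were 0.54 and 0.56 once the length trend was removed. Against Young they were then 0.39 for Col4a1 (adjusted p = 3.8e-06) and 0.12 for Col4a2 (adjusted p = 0.0115), both called higher. Without the steep-slope libraries Col4a1 was at 0.17 against Young.

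The minor type IV chain Col4a5, part of the specialised network of kidney and alveolar basement membranes, was lower with age. For Col4a5 the levels were 88.7, 68.0 and 66.4 CPM in PDK4-IN, 67.1, 64.3 and 64.8 CPM in Aged and 137, 116 and 102 CPM in Young libraries. All Young libraries lay above all others, and PDK4-IN and Aged libraries overlapped, with 0.19 ± 0.09 for PDK4-IN over Aged, which did not pass (adjusted p = 0.107). That value was 0.46 and called higher with the length trend removed (adjusted p = 3.29e-05). It was 0.43 without the steep-slope libraries, where PDK4-IN 1, the highest of its group, stands alone. Col4a5 was called lower with age, at -0.87 ± 0.09 on the log2 scale (SE, edgeR adjusted p = 3.33e-05). With PDK4-IN over Young, Col4a5 was lower, at a log2 fold change of -0.71 ± 0.11 (SE, edgeR adjusted p = 0.000758). Its neighbour on the opposite strand, Col4a6, averaged 2.87 ± 0.60, 2.76 ± 0.33 and 3.78 ± 0.93 CPM in PDK4-IN, Aged and Young libraries. Col4a6 passed in no comparison as reported, but was called lower with age with the length trend removed and without Young 3. Col4a3 and Col4a4, the partners of Col4a5 in that network, stayed below 1 CPM on average in each group.

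Col18a1, whose C-terminal piece is endostatin, was higher with age. PDK4-IN libraries held 325, 319 and 309.9 CPM of Col18a1, Aged libraries 355, 358 and 372 CPM and Young libraries 228, 227 and 205 CPM. The Young libraries were lowest and the Aged libraries highest, without overlap. Col18a1 was called higher with age, at 0.70 ± 0.06 on the log2 scale (SE, edgeR adjusted p = 3.18e-06). For PDK4-IN over Aged the log2 fold change of Col18a1 was -0.18 ± 0.04, called lower (SE, edgeR adjusted p = 0.00614). Col18a1 was called higher with PDK4-IN over Young, at 0.50 ± 0.05 on the log2 scale (SE, edgeR adjusted p = 3.43e-05). The PDK4-IN over Aged value was 0.05 with the length trend removed (adjusted p = 0.353) and -0.16 without the libraries of steep slope. Its relative Col15a1, also found in basement membrane zones, averaged 1.21 ± 0.48, 2.13 ± 0.12 and 0.778 ± 0.15 CPM in PDK4-IN, Aged and Young libraries, with a log2 fold change of 1.44 ± 0.27 with age.

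Col7a1 forms the anchoring fibrils of the skin. Col7a1 measured 74.0, 76.0 and 74.3 CPM in the PDK4-IN libraries, 62.3, 66.9 and 63.8 CPM in the Aged libraries and 84.5, 88.3 and 86.5 CPM in the Young libraries. The 3 groups did not overlap, with Aged lowest and Young highest. With age, Col7a1 was lower, at a log2 fold change of -0.44 ± 0.06 (SE, edgeR adjusted p = 0.000152). With PDK4-IN, Col7a1 was at 0.23 ± 0.06 over Aged and at -0.24 ± 0.05 over Young, both called, and with the length trend removed they were 0.59, still called, and 0.0042, no longer called (adjusted p = 0.979). Its counts carried fractions in all 9 libraries, as estimated counts do where reads are shared between genes or transcripts, so its level is uncertain.

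Type VI collagen forms beaded microfibrils from Col6a1, Col6a2 and a longer chain, for which Col6a3 is the usual one. In PDK4-IN libraries Col6a1 had 315, 319.7 and 302 CPM, in Aged libraries 274, 278 and 265 CPM and in Young libraries 351, 358 and 336 CPM. For Col6a2 the levels were 167, 165 and 149 CPM in PDK4-IN, 137, 144 and 142 CPM in Aged and 181, 184 and 171 CPM in Young libraries. For both chains the PDK4-IN libraries lay between Aged and Young libraries. PDK4-IN libraries held 77.0, 61.0 and 52.0 CPM of Col6a3, Aged libraries 121, 122 and 119 CPM and Young libraries 201, 207 and 134 CPM. Col6a3 did not follow its partners: its PDK4-IN libraries were the lowest of all 9, and Young 3 lay well below the other Young libraries. Col6a3 was called lower with age, at -0.59 ± 0.13 on the log2 scale (SE, edgeR adjusted p = 0.00475). Col6a3 was called lower in PDK4-IN over Aged, at -0.93 ± 0.10 (SE, edgeR adjusted p = 3.31e-05). Col6a3 was called lower with PDK4-IN over Young, at -1.55 ± 0.15 on the log2 scale (SE, edgeR adjusted p = 2.23e-05). At 10106 bases Col6a3 is one of the longest chains. With the length trend removed its value with PDK4-IN over Aged was -0.56 (adjusted p = 2.9e-06), so the call remained at a smaller size. The value was -0.66 with the steep-slope libraries left out, which leaves PDK4-IN 1 against Aged. Col6a1 had log2 fold changes of -0.37 ± 0.05 with age and 0.21 ± 0.04 with PDK4-IN over Aged, and Col6a2 of -0.36 ± 0.05 and 0.19 ± 0.05, all called. The values over Aged were 0.33 and 0.31 without the length trend, and that of Col6a2 lost its call without Aged 1 or PDK4-IN 2 (0.17 for both, adjusted p = 0.0618 and 0.0563).

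The other long type VI chains, Col6a4, Col6a5 and Col6a6, lie next to each other on 1 strand of chromosome 9. They averaged 1.26, 0.773 and 0.5501 CPM in PDK4-IN, 1.74, 1.54 and 1.63 CPM in Aged and 0.567, 0.506 and 0.247 CPM in Young libraries. All 3 were called higher with age, at 1.59 ± 0.37, 1.58 ± 0.32 and 2.70 ± 0.38, and no Aged library overlapped a Young library. With PDK4-IN over Aged, Col6a5 and Col6a6 were called lower, at -0.99 ± 0.33 and -1.56 ± 0.39. The call of Col6a5 ended with DESeq2 (adjusted p = 0.0863) and with the length trend removed (-0.67, adjusted p = 0.114). It also ended without any 1 library but PDK4-IN 1 (-1.06 to -0.80, adjusted p = 0.051 to 0.132), and the value was -0.53 without the steep-slope libraries. These are low levels, and the monocyte and macrophage markers given above moved the same way between the groups; their part was not tested. Col28a1, a beaded chain known from peripheral nerve, was lower with age at -1.16 ± 0.31, with 1.79 ± 0.64 CPM in Aged and 3.94 ± 1.16 CPM in Young libraries.

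Col12a1, a FACIT chain that bridges type I fibrils, had the longest gene length of the chains at 11511 bases. Col12a1 measured 1137, 892 and 791 CPM in the PDK4-IN libraries, 1030.3, 1054 and 1011 CPM in the Aged libraries and 1622, 1536 and 978 CPM in the Young libraries. Young 3 lay below all Aged libraries, while Young 1 and 2 lay above them, and PDK4-IN 1 was above and PDK4-IN 2 and 3 below the Aged libraries. With age, Col12a1 was lower, at a log2 fold change of -0.43 ± 0.15 (SE, edgeR adjusted p = 0.0378). With PDK4-IN over Aged, Col12a1 gave a log2 fold change of -0.13 ± 0.10 (SE), which did not pass (adjusted p = 0.293). With PDK4-IN over Young, Col12a1 was lower, at a log2 fold change of -0.58 ± 0.16 (SE, edgeR adjusted p = 0.0174). The sign with PDK4-IN over Aged turned with the treatment of length: it was 0.26 and called higher with the trend removed (adjusted p = 7.21e-05), and 0.13 in PDK4-IN 1 against Aged. DESeq2 did not call the age difference, and leaving out Young 1, Young 2 or any Aged library also ended that call. In PDK4-IN over Young Col12a1 was -0.30 with the length trend removed, and the call ended without Young 1, Young 2, PDK4-IN 2 or PDK4-IN 3 (-0.56 to -0.47, adjusted p = 0.0662 to 0.0785).

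Of the other FACIT chains, Col16a1, which links fibrils to fibrillin-rich networks, was abundant. In PDK4-IN libraries Col16a1 had 151, 158 and 156 CPM, in Aged libraries 135, 135 and 137 CPM and in Young libraries 139, 129.9 and 141 CPM. Aged libraries fell inside the Young range and PDK4-IN libraries lay above both. Its log2 fold change was 0.20 ± 0.05 with PDK4-IN over Aged (adjusted p = 0.00525) and -0.02 ± 0.05 with age, which did not pass. The value over Aged was 0.41 without the length trend. Against Young it was 0.15 ± 0.05 and did not pass (adjusted p = 0.0525), but 0.29 and called higher with the trend removed (adjusted p = 0.00692). Col14a1, a marker of adventitial and matrix fibroblasts, averaged 2.46 ± 0.44, 3.33 ± 0.82 and 1.52 ± 0.19 CPM in PDK4-IN, Aged and Young libraries and was higher with age at 1.12 ± 0.25. With the length trend removed Col14a1 was also called higher with PDK4-IN over Young. Col19a1, a minor chain of muscle and nerve basement membrane zones, was lower with age at -1.17 ± 0.28 and with PDK4-IN over Young at -1.52 ± 0.31. The value over Young was -1.11 without the steep-slope libraries. Col22a1, known from tissue junctions, was higher with PDK4-IN, at 0.77 ± 0.15 over Aged and 0.45 ± 0.14 over Young. The call over Young ended with DESeq2 (adjusted p = 0.0711). It also ended without each of Young 1, Young 2 and the Aged and PDK4-IN libraries in turn (0.36 to 0.49, adjusted p = 0.05 to 0.132). The value over Young was 0.51 without the steep-slope libraries and 0.69 with the length trend removed. Col20a1 reached 12.9, 5.02 and 14.5 CPM in the 3 Aged libraries, and its counts carried fractions in 8 of the 9 libraries. It passed in no comparison as reported, but was called higher with PDK4-IN over Young with the length trend removed. Without the filter on low counts it was called higher in all 3 comparisons.

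The 4 transmembrane chains were low. Col13a1, Col17a1 and Col25a1, at 0.888 ± 0.38, 2.42 ± 0.10 and 1.67 ± 0.15 CPM in Aged and 0.144 ± 0.12, 1.25 ± 0.36 and 0.835 ± 0.14 CPM in Young libraries, were called higher with age. Col17a1 is a hemidesmosome component of epithelium, and Col13a1 sits at cell adhesion sites. Col23a1 was lower with age, with 7.57 ± 1.47 CPM in Aged and 10.97 ± 1.24 CPM in Young libraries (log2 fold change -0.54 ± 0.15), and with PDK4-IN over Young (-0.63 ± 0.15). The age call of Col23a1 ended without Young 2, Aged 2 or Aged 3 (-0.55 to -0.42, adjusted p = 0.0508 to 0.0563). Its value over Young was -0.49 without the steep-slope libraries. The call of Col25a1 with age ended with DESeq2 (0.96, adjusted p = 0.0645) and without Young 3 or Aged 2 (0.84 and 0.90, adjusted p = 0.0529 and 0.0699). For Col17a1 it ended without Young 2 or Aged 1 (0.85 and 0.91, adjusted p = 0.053 and 0.0568). Col25a1 did not pass with PDK4-IN over Aged as reported, but was called lower there with the length trend removed.

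Short-chain network collagens had the largest falls with age among the chains above 5 CPM. Col10a1 is known as the marker of hypertrophic cartilage, and Col8a1 and Col8a2 form lattices in vessel walls and corneal endothelium. For Col10a1 the levels were 28.6, 26.8 and 28.0 CPM in PDK4-IN, 13.0, 11.3 and 11.5 CPM in Aged and 60.1, 57.7 and 59.7 CPM in Young libraries. Each group formed a tight cluster of its own, with no overlap. Col10a1 was called lower with age, at -2.32 ± 0.08 on the log2 scale (SE, edgeR adjusted p = 1.86e-09). For PDK4-IN over Aged the log2 fold change of Col10a1 was 1.22 ± 0.08, called higher (SE, edgeR adjusted p = 4.77e-07). Col10a1 was called lower with PDK4-IN over Young, at -1.12 ± 0.07 on the log2 scale (SE, edgeR adjusted p = 4.83e-07). The values for Col10a1, at 3130 bases a shorter chain, hardly changed with the length trend removed, at -2.34, 1.25 and -1.12. PDK4-IN libraries held 176, 137 and 137 CPM of Col8a1, Aged libraries 149.8, 149.7 and 147 CPM and Young libraries 321, 303 and 258 CPM. Col8a2 measured 2.56, 3.62 and 2.42 CPM in the PDK4-IN libraries, 1.99, 2.62 and 2.18 CPM in the Aged libraries and 6.91, 6.92 and 5.55 CPM in the Young libraries. For these 2 chains PDK4-IN and Aged libraries overlapped, and all of them lay below the Young libraries. With age, Col8a1 was lower, at a log2 fold change of -0.99 ± 0.08 (SE, edgeR adjusted p = 2.1e-06). Col8a2 was called lower with age, at -1.53 ± 0.18 on the log2 scale (SE, edgeR adjusted p = 7.06e-05). With PDK4-IN over Aged neither passed, at 0.02 ± 0.08 and 0.35 ± 0.23, and with PDK4-IN over Young both were called lower, at -1.004 ± 0.095 and -1.20 ± 0.20. Col8a1 over Aged was 0.21 and called higher with the length trend removed (adjusted p = 0.00508). It was 0.23 without the steep-slope libraries and -0.08 without PDK4-IN 1. In the age comparison the summed smooth muscle and pericyte markers also differed, as given above, and their part in the Col8a1 and Col8a2 values was not tested.

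Of the 41 chains tested, 5 passed in no comparison as reported, namely Col4a4, Col4a6, Col9a2, Col9a3 and Col20a1. Alternatives added calls for all of these but Col4a4. Those of Col4a6 and Col20a1 are given above. Col9a2 was called higher with age without Aged 1, and Col9a3 higher with PDK4-IN over Aged without Aged 2 or PDK4-IN 1. Col9a2 and Col9a3, chains of the cartilage FACIT type IX, averaged 0.657 and 5.65 CPM in PDK4-IN, 0.919 and 4.25 CPM in Aged and 0.461 and 3.93 CPM in Young libraries. The 6 chains below 1 CPM in every group were Col4a3, Col4a4, Col9a1, Col9a2, Col13a1 and Col26a1. Col9a1 was the 1 chain listed at 0 in a library.

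**Figure D4:**
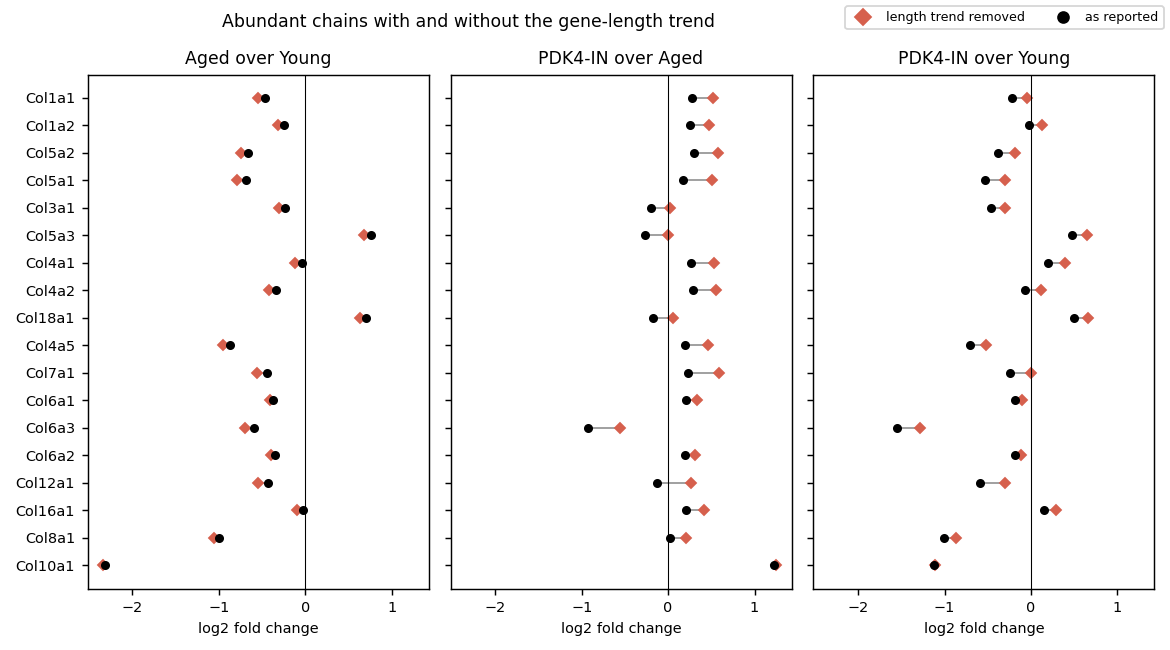
Log2 fold changes of the 18 chains with a group mean of at least 50 CPM, with the gene-length trend removed (diamonds) and as reported (circles). In PDK4-IN over Aged the diamonds lie to the right of the circles for all chains, so that Col12a1 is at 0.26 with the trend removed and at -0.13 as reported.

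Chains of 1 trimer can be compared within a library as ratios per kilobase, which cancels the scaling of the library. Across 5 pairs and 3 comparisons, 15 exact permutation tests were run, whose smallest possible p is 0.1 and smallest adjusted p was 0.167. Col1a1 to Col1a2 was 1.61, 1.60 and 1.61 in PDK4-IN, 1.59, 1.60 and 1.57 in Aged and 1.77, 1.86 and 1.91 in Young libraries. Both old groups lay below the Young group without overlap (log2 difference of Aged over Young -0.22 ± 0.04, SD). Col4a1 to Col4a2 was 1.27, 1.33 and 1.33 in PDK4-IN, 1.29, 1.37 and 1.35 in Aged and 1.14, 1.06 and 1.06 in Young libraries. Aged lay above Young without overlap (0.30 ± 0.05), and PDK4-IN overlapped Aged. The order of Col4a1 above Col4a2 thus held in all 9 libraries. Col6a3 to Col6a1 was 0.099, 0.077 and 0.070 in PDK4-IN against 0.179, 0.178 and 0.183 in Aged libraries, without overlap (-1.15 ± 0.18), while Young 3, at 0.162, lay below and Young 1 and 2, at 0.232 and 0.234, above the Aged libraries. Both chains differ in length, so this ratio also carries the length trend. With the deposited TPM the Young libraries, at 0.401, 0.400 and 0.382, all lay above the Aged libraries, at 0.280, 0.366 and 0.294. Col5a1 to Col5a2 was 0.488 to 0.495 in PDK4-IN and 0.529 to 0.547 in Aged libraries, without overlap (-0.13 ± 0.02). With the deposited TPM that difference was 0.06, of opposite sign, and the cause was not tested. Col6a1 to Col6a2 overlapped in all 3 comparisons, at 1.82 to 1.95 in PDK4-IN, 1.80 to 1.93 in Aged and 1.87 to 1.89 in Young libraries.

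**Figure D5:**
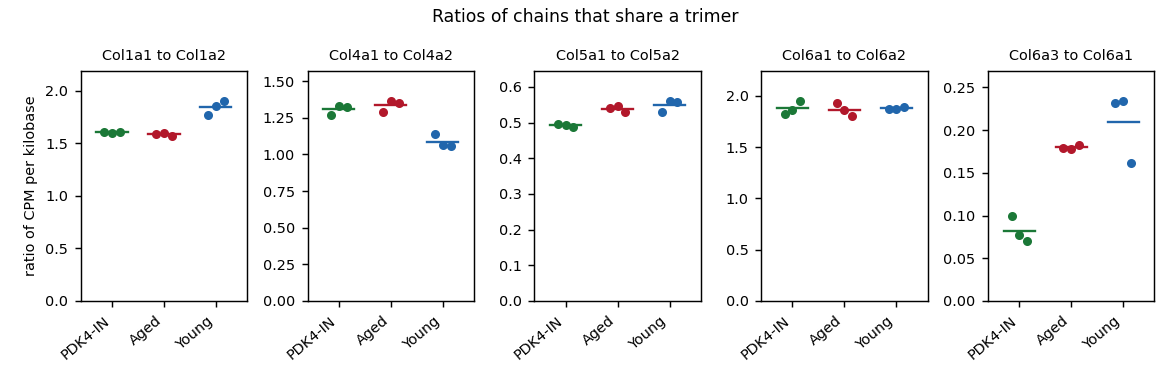
Ratio of CPM per kilobase of 5 pairs of chains that share a trimer, with PDK4-IN, Aged and Young from left to right. Points are libraries and lines group means. The Col6a3 to Col6a1 ratio averaged 0.082 in PDK4-IN, 0.180 in Aged and 0.210 in Young libraries.

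Genes that make, cross-link and fold collagen moved in both directions with age. Of 36 such genes 35 were tested, and 12 were called higher and 16 lower, against 21.4% and 19% of all genes, with a median of -0.18 on the log2 scale (all genes 0.01). Sparc, a collagen-binding chaperone of the matrix, averaged 2055 ± 24.2 CPM in PDK4-IN, 1199 ± 12.3 CPM in Aged and 2156 ± 58.9 CPM in Young libraries, and was lower at -0.86 ± 0.04. Loxl3 and Loxl1, cross-linking oxidases of the lysyl oxidase family, were lower at -0.97 ± 0.06 and -0.60 ± 0.05. Tgm2, a cross-linking transglutaminase, averaged 54.2 ± 1.71 CPM in Aged and 19.5 ± 3.80 CPM in Young libraries, and was higher at 1.46 ± 0.11. The prolyl hydroxylase subunit P4ha2 and the lysyl hydroxylase Plod2 were higher at 0.61 ± 0.05 and 0.71 ± 0.06.

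Over Aged, PDK4-IN libraries had 15 of these 35 genes higher and 12 lower, against 23.9% and 25.7% of all genes, with a median of 0.05 against 0.00. Sparc was higher than in Aged at 0.79 ± 0.04, and Pcolce, the enhancer of procollagen C-proteinase, and P3h4, a cofactor of lysyl hydroxylation, were higher at 0.58 ± 0.05 and 0.53 ± 0.06. Tgm2 was lower at -1.63 ± 0.07, Loxl4 at -0.63 ± 0.09 and Plod2 at -0.41 ± 0.06. Against Young, 5 genes were higher and 8 lower with PDK4-IN, against 13.3% and 15.7% of all genes, and both medians were near 0 (-0.06 and 0.02). Without PDK4-IN 2 the higher ones were 2, and 3 without Young 1, Young 2, PDK4-IN 3 or any 1 Aged library, and without Young 3 the lower ones were 13. P4ha2, Plod1 and Plod2 were the named higher ones, at 0.75 ± 0.05, 0.28 ± 0.06 and 0.27 ± 0.07. Loxl3, the procollagen C-proteinase Tll1 and P4ha3 were lower, at -0.74 ± 0.06, -0.98 ± 0.09 and -0.73 ± 0.11. With the length trend removed 14 of these genes were lower against Young.

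Among 25 genes of collagen breakdown and uptake, 23 were tested with age, of which 10 were higher and 12 lower, against 21.4% and 19% of all genes, with a median of -0.19. The list also holds the inhibitors Timp1, Timp2, Timp3, Timp4 and Reck, so its counts and medians do not measure more or less breakdown. The largest differences were in genes known from leukocytes. Ctss, a lysosomal protease of myeloid cells, averaged 6.10 ± 0.32 CPM in PDK4-IN, 303 ± 7.64 CPM in Aged and 0.226 ± 0.13 CPM in Young libraries. Mmp8, a neutrophil collagenase, averaged 1.84 ± 0.41 CPM in PDK4-IN, 95.7 ± 2.39 CPM in Aged and 0.326 ± 0.08 CPM in Young libraries. Mrc1, a macrophage receptor that takes up collagen, averaged 1.31 ± 0.31 CPM in PDK4-IN, 68.9 ± 4.20 CPM in Aged and 0.992 ± 0.14 CPM in Young libraries. All 3 were called higher with age and lower with PDK4-IN over Aged. Mrc1 is itself 1 of the 17 monocyte and macrophage markers, so its values are part of their sum. Ctss and Mmp8 differed in the same directions as that sum, and the part of these markers was not tested. The 8 neutrophil markers summed to 58.7 to 76.1 CPM in PDK4-IN, 44.1 to 51.3 CPM in Aged and 8.54 to 10.9 CPM in Young libraries. Only 1 in PDK4-IN, 2 in Aged and 1 in Young reached a mean of 1 CPM, so these sums rest on few genes. Of the 3 tested, 3 were called higher with age, against 21.4% of all genes. With PDK4-IN over Aged 1 was higher and 1 lower, against 23.9% and 25.7%.

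Other members of that list are made by fibroblasts. Ctsk, a collagen-degrading cathepsin, averaged 121 ± 7.85 CPM in PDK4-IN, 57.9 ± 2.30 CPM in Aged and 131 ± 5.70 CPM in Young libraries, and was called lower with age at -1.20 ± 0.06 and higher with PDK4-IN over Aged at 1.08 ± 0.07. The cathepsins Ctsb and Ctsl of the same list went the other way with age, and both were called higher. They averaged 2749 and 2712 CPM in Aged and 1343 and 1586 CPM in Young libraries. The inhibitors Timp3 and Timp2 were lower with age at -1.91 ± 0.08 and -0.54 ± 0.05. The inhibitor Timp1 was instead higher with age, at 0.22 (edgeR adjusted p = 0.0376). Timp1 was also called higher with PDK4-IN, at 0.50 over Aged and 0.69 over Young. Over Aged, PDK4-IN gave 10 higher and 7 lower of 24 genes, against 23.9% and 25.7% of all genes, with a median of 0.14. Among these, Mmp2, a gelatinase, and Timp2 were higher at 0.64 ± 0.04 and 0.37 ± 0.04. Over Young, PDK4-IN gave 12 higher and 5 lower of 24, against 13.3% and 15.7% of all genes, with a median of 0.17, and the lower ones were 3 without Young 2. The stromelysin Mmp3 averaged 1270 ± 69.9 CPM in PDK4-IN, 1352 ± 8.29 CPM in Aged and 424 ± 29.2 CPM in Young libraries. It was higher than in Young in both old groups, at 1.55 ± 0.06 with PDK4-IN and 1.66 with age, and PDK4-IN over Aged gave -0.08, which did not pass (adjusted p = 0.206). The collagenase Mmp13 averaged 1388 ± 61.1 CPM in PDK4-IN, 1919 ± 17.4 CPM in Aged and 757 ± 20.4 CPM in Young libraries. Mmp13 was higher than in Young at 0.84 ± 0.04 with PDK4-IN and 1.33 with age, and lower with PDK4-IN over Aged, at -0.46 (adjusted p = 4.62e-06). Timp3, Mmp16 and Timp2 were lower than in Young at -1.61 ± 0.09, -0.76 ± 0.11 and -0.20 ± 0.05.

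Of 13 genes listed as collagen receptors, among them Cd93, 12 were tested, and whether each binds collagen was not examined. With age 5 were higher and 5 lower, against 21.4% and 19% of all genes, with a median of -0.07. Itgb1, the common beta chain of the collagen-binding integrins, averaged 1317 ± 9.48 CPM in Aged and 1893 ± 89.7 CPM in Young libraries and was lower at -0.54 ± 0.05, as were its fibroblast partner Itga11, at -1.87 ± 0.19, and the receptor kinase Ddr1, at -0.45 ± 0.06. Cd93, which is made by endothelium and myeloid cells, was higher at 3.33 ± 0.09, Itga2, an alpha chain with Itgb1, at 1.08 ± 0.07 and the adhesion receptor Adgrg6 at 1.21 ± 0.12. With PDK4-IN over Aged 1 receptor, Ddr1, was higher at 0.24 ± 0.06, and 6 were lower, against 23.9% and 25.7% of all genes, with a median of -0.33. The lower ones included Cd93 at -3.24 ± 0.10, Adgrg6 at -0.98 ± 0.07 and Itga2 at -1.01 ± 0.08. Over Young 0 receptors were higher with PDK4-IN by edgeR or DESeq2 (1, Lair1, at an unadjusted p below 0.05 in edgeR), and 6 were lower, against 13.3% and 15.7% of all genes, with a median of -0.24. Lower were Itgb1 at -0.53 ± 0.05, Itga11 at -1.73 ± 0.18 and Cd44, a hyaluronan and collagen receptor, at -0.24 ± 0.05.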

How the data were processed

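Both deposited tables were joined by gene identifier, and the 3 Aged columns, which stand in both tables, were identical and used once. The deposited gene table holds the authors' expected counts, unnormalised estimates of which 12.7% of cells carried a fraction. The deposited TPM served only as an alternative for chain ratios, and the deposited gene length in bases gave levels per kilobase. The authors' processing notes name Bowtie 0.12.2 and GRCm39 (mm39). Deposited columns of fold changes, p-values and group means were not used. In the study's methods, a section on human cells that also lists these data as deposited gives RSEM, a stranded kit and a human genome, and whether any of it applies to these mouse libraries is unclear.

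Counts were rounded to whole numbers and fitted over all genes with edgeR 4.0.16 in R 4.3.3 (filterByExpr, TMM, quasi-likelihood test) with Benjamini-Hochberg adjustment over all genes tested, called at 0.05. Aged over Young and PDK4-IN over Aged used their own 6 libraries, and PDK4-IN over Young all 9. SE is the absolute log2 fold change over the square root of F. Sums and ratios were compared with two-sided exact permutation tests over libraries. The fits were tested on simulated data. Values in every library are given for chains with a group mean of at least 50 CPM, or of at least 5 CPM with a called change of 2-fold or more; of each gene list the 3 lowest p-values in each direction at 5 CPM or more are named. Members and gene lists were chosen with earlier results of these data known. The alternatives were DESeq2 1.42.0, other scalings, no filter, a replicate block, all 9 or own 6 libraries, a fold limit, leaving out each library, and the gene-length trend removed by a robust spline with 4 degrees of freedom per library. Leaving out Young 3, PDK4-IN 2 and PDK4-IN 3 together was added after their slopes were seen, and takes PDK4-IN 1 to vary like the libraries that remain. Promoter windows came from a RefSeq table on GRCm38.p6, trimmed to the 250 bases before the start. Marker lists of other lung cell types checked the labelled cell type.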

Additional observations from a re-analysis of the deposited data

How the results depend on the processing

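Aged over Young kept its counts within 1.5 times under all alternatives but a 2-fold limit, which left 7 chains higher and 4 lower. PDK4-IN over Aged was less stable. Its count of lower chains was 6 with DESeq2, 4 with the length trend removed, and 2 with the trend removed and a replicate block, while a 2-fold limit left 1 higher and 1 lower. For PDK4-IN over Young the count of higher chains was 15 with the length trend removed, 14 with the trend removed and a replicate block, and 11 with the replicate block alone, while a 2-fold limit left 2 higher and 5 lower. Signs turned with the length trend removed, without and with a replicate block, in PDK4-IN over Aged for Col3a1 (0.0237 and 0.0224), Col27a1 (0.0709 and 0.0722), Col18a1 (0.0513 and 0.0502) and Col12a1 (0.264 and 0.263), and in PDK4-IN over Young for Col1a2 (0.1275 and 0.1274), Col4a2 (0.1182 and 0.1182) and Col7a1 (0.0042 and 0.0045). Col12a1 over Aged was 0.1338 without the steep-slope libraries, and Col1a2 over Young 0.0084 with library totals. The cause of these changes was not tested beyond the alternative itself.

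Same-numbered correlations were 0.0023 to 0.043 for Aged and Young, -0.040 to 0.040 for PDK4-IN and Aged, and -0.017 to 0.18 for PDK4-IN and Young. Different-numbered ones were -0.033 to 0.019, -0.080 to 0.078 and -0.23 to 0.13. With 3 libraries per group these values cannot decide whether replicate numbers pair the libraries. With the block alone, calls were lost for Col28a1, Col2a1 and Col17a1 over Aged.

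With the length trend removed, 3 collagen receptors were higher with PDK4-IN over Aged and 2 over Young, and 14 modification genes were lower over Young. With deposited TPM the log2 ratio of Col4a1 to Col4a2 was 0.413 with age and -0.172 with PDK4-IN over Aged, that of Col5a1 to Col5a2 -0.133, 0.06 and -0.0726 in the 3 comparisons, and that of Col6a3 to Col6a1 -0.823 with PDK4-IN over Aged.

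Leaving out 1 library at a time turned the sign of 3 chains, with ranges of -0.1391 to 0.0161 for Col4a1 with age (turned without Young 1), -0.0781 to 0.0784 for Col8a1 with PDK4-IN over Aged (without PDK4-IN 1) and -0.0937 to 0.0067 for Col1a2 with PDK4-IN over Young (without Young 1 or PDK4-IN 3), none of them called with all libraries. Over these leave-outs the count of lower chains in PDK4-IN over Aged, 11 with all libraries, was 6 to 11, and that of higher chains over Young, 7 with all libraries, 3 to 7. In PDK4-IN over Young the modification genes were 2 to 6 higher and 7 to 13 lower, the breakdown genes 3 to 6 lower and the receptors 0 to 1 higher. At least 1 leave-out ended the call of 4 of 30 chains with age, 8 of 26 in PDK4-IN over Aged and 6 of 22 in PDK4-IN over Young. Besides those given in the report these were Col15a1, Col17a1, Col27a1 and Col28a1 over Aged, and Col6a2, Col6a4, Col13a1 and Col27a1 over Young.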
